A study of Mus musculus with 31 samples.

Results

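The 10 genes described here were Arid1a, Arid1b, Arid2, Arid3a, Arid3b, Arid4a, Arid4b, Arid5a and Arid5b of the ARID family, and Phf2, the demethylase that works with Arid5b. They were chosen by name, and all 10 were found among the 20544 gene symbols counted in 31 single 2-cell mouse embryos. The embryos, labelled WT, came from in vitro fertilization of oocytes of superovulated CD1 females (8 to 10 weeks old) with sperm of C57BL/6J males (12 to 14 weeks old). Sperm of one cauda epididymis were kept in complete medium (16 control-generated embryos), and sperm of the other cauda were held without glucose and pyruvate until they stopped moving and were then given both again (15 SER-generated embryos, for sperm energy restriction and recovery). All embryos were collected 32 h after insemination. The labels do not say which embryos shared a male or a dish, so the tests measure the spread between these embryos. The question for these genes was whether their transcripts differ between SER- and control-generated embryos.

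ARID proteins share a DNA-binding fold, the AT-rich interaction domain, and most of them act as parts of chromatin complexes. Arid1a and Arid1b are alternative subunits of the BAF form of the SWI/SNF nucleosome remodeler, and Arid2 defines its PBAF form. Arid3a and Arid3b are transcription factors. Arid4a and Arid4b bind the retinoblastoma protein and the SIN3 histone deacetylase complex, Arid5a is also an RNA-binding protein that stabilizes certain cytokine transcripts, and Arid5b recruits Phf2, which removes methyl groups from histone tails. In the 2-cell embryo, transcripts stored by the oocyte are being cleared while the embryo's own genome becomes active, so a transcript counted at this stage can be inherited, newly made or both.

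Arid5b spans bases 68092520 to 68278740 of chromosome 10, minus strand, and Arid5a spans bases 36307733 to 36324029 of chromosome 1, plus strand (GENCODE vM21, GRCm38). The 250 bases before the RefSeq start of each (GRCm38.p6) are shown because Arid5b is the gene with the widest spread described here and Arid5a is its closest paralog. The sequences are written 5′ to 3′ on the strand of the gene, with each CpG dinucleotide in capitals.
Arid5b, chr10:68278727-68278976, minus strand: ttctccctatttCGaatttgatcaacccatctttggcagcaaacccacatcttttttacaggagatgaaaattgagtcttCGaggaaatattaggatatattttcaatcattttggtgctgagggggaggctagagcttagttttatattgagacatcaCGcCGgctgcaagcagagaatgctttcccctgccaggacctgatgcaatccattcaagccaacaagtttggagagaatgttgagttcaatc
Arid5a, chr1:36307483-36307732, plus strand: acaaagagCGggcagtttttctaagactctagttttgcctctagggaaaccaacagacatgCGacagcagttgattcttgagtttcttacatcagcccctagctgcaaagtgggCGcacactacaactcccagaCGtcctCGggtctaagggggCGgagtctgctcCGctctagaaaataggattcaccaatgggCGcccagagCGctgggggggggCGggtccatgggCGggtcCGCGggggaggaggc
The Arid5b window held 4 CpG and was 42.0% G or C, and the Arid5a window held 13 CpG and was 58.0% G or C. Over 32851 mouse promoter windows of the same length the medians were 6 CpG and 52.4%. RefSeq windows were matched for 7 of the 10 genes, 9 windows in all, and the other 7 windows held from 8 to 50 CpG, the most in Phf2. The letters CCAAT on either strand were found in 3 of the 9 windows (Arid3b, Arid4b and Arid5a) and in 33.8% of all windows. A match is a description of letters and no evidence of a binding site.

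Libraries held 532945 to 2085222 counts in control- and 642321 to 3088396 counts in SER-generated embryos. Levels are given as CPM, counts per 1000000 counts of the library, and are therefore relative, so that a lower share of a transcript and more RNA from other genes cannot be told apart. Transcripts of both programmes of this stage were present. The summed level of 16 oocyte genes ran from 1262 to 12818 CPM, and that of 20 zygotic 2-cell genes from 139 to 2664 CPM. The sum of 11 cumulus and granulosa cell genes was higher in part of the control-generated embryos, with a median of 19.7 CPM against 6.09 CPM in SER-generated embryos. It was at most 18.2 CPM in SER-generated embryos and from 22.6 to 97.9 CPM in control replicates 4 and 6 to 11, and in control replicate 5 it was 1626 CPM, of which Cyp11a1 made up 1423 CPM. Cyp11a1 was also most of the sum in each of control replicates 6 to 11, with 16.3 to 71.8 CPM, and was 9.05 CPM in control replicate 4. The sum thus rested largely on 1 gene in these embryos. The sperm genes summed to at most 70.9 CPM. Control replicates 3 and 4 and SER replicate 15 stood apart. Their oocyte genes summed to between 10515 and 12818 CPM against at most 6884 CPM in the other 28 embryos, and their mean Spearman correlation with the other embryos over the tested genes was 0.45 to 0.54 against 0.65 to 0.80. The 3 were not alike in the zygotic genes, which summed to 2250 CPM in control replicate 3, 139 CPM in control replicate 4 and 317 CPM in SER replicate 15.

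Arid5b was the most variable of the 10 genes between embryos. In control-generated embryos its level was 0 CPM at the lowest, 24.6 CPM at the median and 283 CPM at the highest (n = 16), and in SER-generated embryos it was 8.21, 81.6 and 273 CPM (n = 15). Behind these values stood 0 to 324 counts per control- and 9 to 538 counts per SER-generated embryo. The groups overlapped over most of their range. The highest value of all was that of a control-generated embryo, replicate 16, and the control values next to it were 87.2, 81.0 and 78.7 CPM in replicates 1, 2 and 10. A level above 100 CPM, a value chosen after the levels were seen, was found in 7 of the 15 SER- and in 1 of the 16 control-generated embryos, and none of these was an embryo that stood apart. The 7 were replicates 1, 2, 3, 6, 8, 13 and 14. SER-generated embryos also included low values, 8.21 CPM in replicate 12, 9.74 CPM in replicate 15 and 11.1 CPM in replicate 9. No Arid5b count was found in control replicate 13, which at its depth allows a level of up to 1.93 CPM for 3 counts, a limit from counting error only. In control replicates 4 to 11, where the cumulus and granulosa cell genes summed to more than in any SER-generated embryo, Arid5b ran from 6.04 to 78.7 CPM, and in the other control-generated embryos from 0 to 283 CPM. The part of those cells in its difference between the groups was not tested.
The mean level of Arid5b was 46.6 ± 69.4 CPM (SD, n = 16) in control- and 113 ± 92.9 CPM (SD, n = 15) in SER-generated embryos. Its log2 fold change between the groups was 1.22 (SE 0.58), and with Benjamini-Hochberg adjustment over the 8571 genes tested by edgeR's quasi-likelihood test it did not pass the threshold of 0.1 (adjusted p = 0.868). The study singled out Arid5b by its own test of these same embryos, so its difference is not independent evidence of a direction. The highest control-generated embryo moved the estimate most. Without control replicate 16 it was 1.79 (edgeR, adjusted p = 0.495), and over the fits that left out each of the 31 embryos in turn it ran from 1.07 to 1.79, with adjusted p between 0.483 and 0.998. Without the 3 embryos that stood apart it was 1.20 (adjusted p = 0.737).

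**Figure D1:**
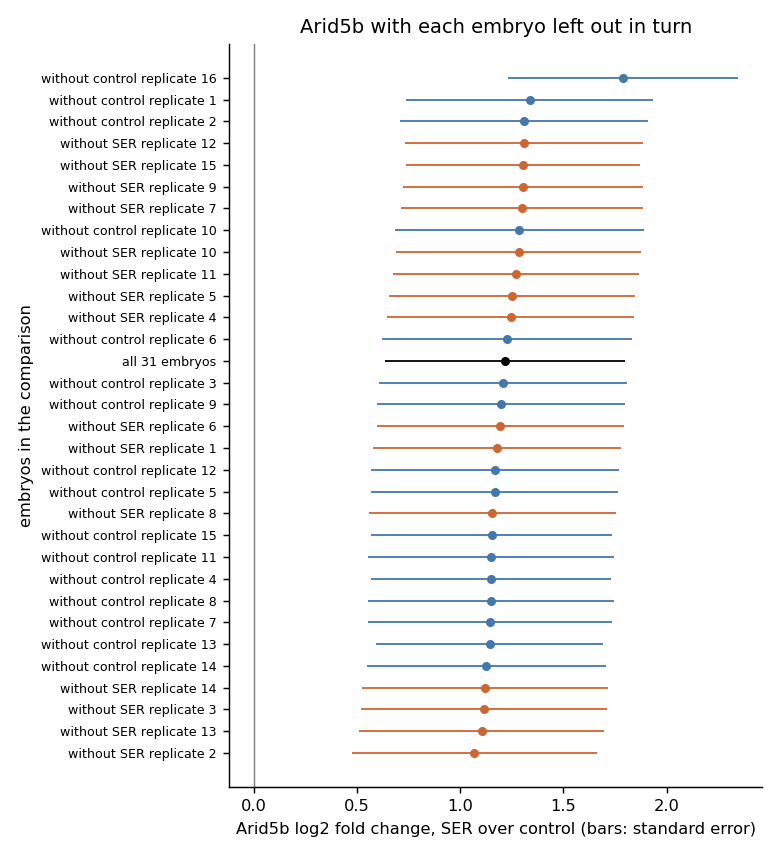
Log2 fold change of Arid5b between SER- and control-generated embryos (x axis, bars are standard errors) in fits with each embryo left out in turn (y axis), coloured by the group of the embryo left out, with the fit of all 31 embryos in black. The estimates lie between 1.07 and 1.79, and the fit without control replicate 16 is the highest.

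The estimates of the other 9 genes were smaller than that of Arid5b. All 10 genes passed the filter on low counts, and 0 of 10 had an adjusted p under 0.1 in edgeR's test, as did 0% of the 8571 genes tested. An unadjusted p under 0.05 was found for 1 of the 10, Arid5b (p = 0.0435), and for 5.73% of all genes tested. The estimate was higher in SER-generated embryos for 7 of the 10 genes, against 52.7% of all genes tested. The median estimate was 0.15 for the 10 genes and 0.02 for all genes tested, on the log2 scale. In simulated embryos with the same mean and spread for each gene and the same depths, the same test called 28.1% of genes changed 2-fold and 92.9% of genes changed 4-fold. A 2-fold change would thus often be missed. These shares are over all 89 and 98 changed genes tested there. Each gene was drawn independently there, without variation that genes share between embryos, so the shares may not carry over to these embryos. Arid5b varied more between embryos than 93.3% of the genes tested, and the share for genes that variable was not measured. The adjustment also depends on how many genes change, and 25 and 91 changed genes were called there, against 0 genes in these embryos. Other tools called 0.572% of the genes tested (DESeq2, which gave Phf2 no adjusted p), 0.0817% (edgeR with surrogate variables) and 9.89% (limma voom with sample quality weights), and none of the 10 genes in any of them.

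**Figure D2:**
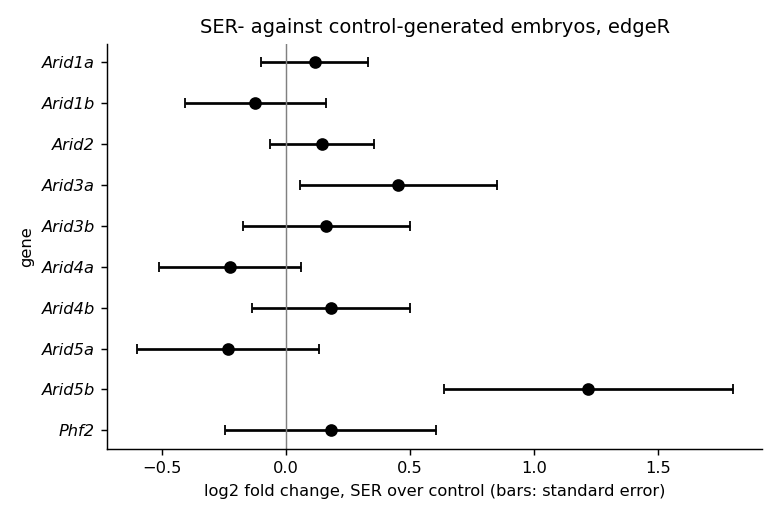
Log2 fold changes between SER- and control-generated embryos (x axis) for the 10 genes (y axis) by edgeR, with bars of 1 standard error. Arid5b lies at 1.22 and the other 9 genes between -0.23 and 0.45.

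Among the SWI/SNF subunits, Arid1a, on chromosome 4 from 133679008 to 133756769, was abundant in every embryo. It had 116, 734 and 1258 CPM at the lowest, median and highest in control- and 409, 823 and 1138 CPM in SER-generated embryos. The range of the SER-generated embryos fell inside that of the control-generated embryos, and the lowest value was that of control replicate 3, one of the embryos that stood apart. The estimated log2 difference was 0.12 with SE 0.22 (edgeR, adjusted p = 0.978).
Arid1b, on chromosome 17 from 4994332 to 5347656, had 20.9, 176 and 297 CPM in control-generated and 48.7, 169 and 299 CPM in SER-generated embryos, so the medians and the highest values were close. The estimated log2 difference was -0.12 with SE 0.28 (adjusted p = 0.981). Arid2, the PBAF subunit on chromosome 15 from 96287518 to 96404992, had 73.1, 196 and 477 CPM in control-generated and 74.0, 222 and 356 CPM in SER-generated embryos. The estimated log2 difference was 0.15 with SE 0.21 (adjusted p = 0.968), the smallest standard error of the 10, and the 95% interval of the difference ran from -0.26 to 0.55 by normal approximation.

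The transcription factors Arid3a and Arid3b had lower medians than Arid1a, Arid1b and Arid2 in both groups. Arid3a, on chromosome 10 from 79927043 to 79955018, had 1.84, 36.6 and 96.9 CPM in control-generated and 4.28, 42.6 and 114 CPM in SER-generated embryos. Its highest values came from SER replicates 8 and 11 and control replicate 13, and the estimated log2 difference was 0.45 with SE 0.40 (adjusted p = 0.936). Arid3b, on chromosome 9 from 57790353 to 57836793, had 1.31, 45.5 and 88.3 CPM in control-generated and 29.9, 50.8 and 91.1 CPM in SER-generated embryos. No SER-generated embryo fell as low as control replicates 8 and 15, which held 1 and 5 counts of Arid3b. The log2 fold change was 0.16 (SE 0.34, adjusted p = 0.978), and the antisense gene Gm17231, which is not among the counted symbols, shares 360 of the 7976 annotated exon bases.

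The SIN3-binding paralogs had estimates of opposite sign, neither past the threshold, and either sign turned under another fit (0.041 for Arid4a with library size as covariate, -0.056 for Arid4b with limma voom). Arid4a, on chromosome 12 from 71015990 to 71098592, had 54.6, 293 and 614 CPM in control-generated and 48.3, 187 and 538 CPM in SER-generated embryos, with 4 of the 15 SER-generated embryos over the median of the controls. The estimated log2 difference was -0.23 with SE 0.29 (adjusted p = 0.967). Arid4b, on chromosome 13 from 14063232 to 14199603, had 13.6, 196 and 333 CPM in control-generated and 23.4, 210 and 395 CPM in SER-generated embryos, with a log2 fold change of 0.18 and SE 0.32 (adjusted p = 0.976). Of its exon bases 257 overlap Ggps1 on the opposite strand, and the strand setting of the counting is not given in the sources used here, so some reads could belong to either gene.

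Arid5a, the paralog of Arid5b, had 9.05, 172 and 375 CPM in control-generated and 6.23, 169 and 253 CPM in SER-generated embryos. Its medians were close, the estimated log2 difference was -0.23 with SE 0.37 (adjusted p = 0.973), and whether it differed from that of Arid5b was not tested. Phf2, on chromosome 13 from 48801750 to 48871119, was the lowest of the 10, with 0, 12.8 and 36.8 CPM in control-generated and 3.42, 12.4 and 36.1 CPM in SER-generated embryos. These rest on at most 40 counts in a control- and 78 counts in a SER-generated embryo, and control replicate 3 held none, which allows up to 2.93 CPM. Its highest value was that of control replicate 5, the embryo with the most cumulus and granulosa cell transcripts, and without it the estimated log2 difference given next was 0.36 (edgeR, adjusted p = 0.983). Without SER replicate 14, the highest of the SER-generated embryos, that estimate was 0.0016 (edgeR, adjusted p = 0.999). Without the 3 embryos that stood apart it was 0.038 (edgeR, adjusted p = 0.992). The log2 fold change of Phf2 was 0.18 (SE 0.42, adjusted p = 0.981), with a 95% interval from -0.65 to 1.01, so that a doubling could not be told from no change.

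**Figure D3:**
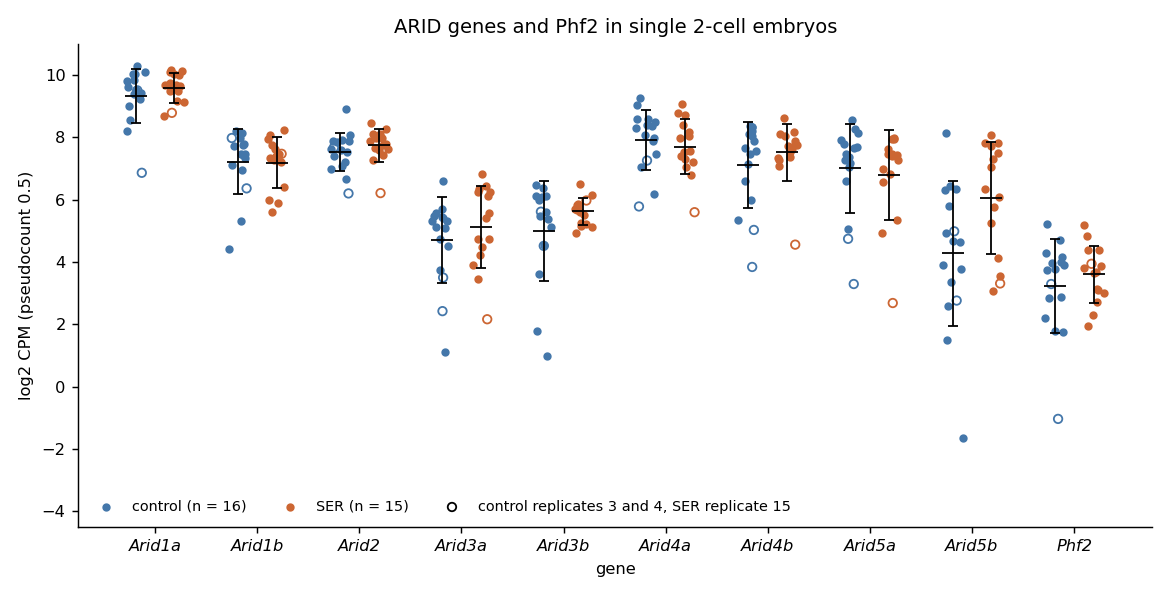
Levels of the 10 genes (x axis) as log2 CPM with a pseudocount of 0.5 (y axis) in 16 control- and 15 SER-generated embryos, a point per embryo, with black bars for the mean and SD and open circles for control replicates 3 and 4 and SER replicate 15. The groups overlap for every gene, Arid5b and Phf2 each have a control-generated embryo with no count, and the open circles are the 3 lowest values of Arid4b and of Arid5a.

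The spread between embryos differed much among the 10 genes. Corrected for counting noise, the biological coefficient of variation estimated by edgeR was 106% for Arid5b, higher than for 93.3% of the genes tested. It was 41.4% for Arid2 and 43.1% for Arid1a, where only 5.81% and 7.69% of the genes tested were lower. The other 7 lay between 54.5% and 73.3%, with a median over all genes tested of 67.9%.
Arid4b and Arid5a were at their lowest in the 3 embryos that stood apart. Arid4b had 32.2, 13.6 and 23.4 CPM in control replicates 3 and 4 and SER replicate 15, below the lowest of the other 28 embryos (40.5 CPM, median 214 CPM). Arid5a had 26.3, 9.05 and 6.23 CPM in the same embryos, below the lowest of the others (30.0 CPM, median 174 CPM). The share of all genes tested that were lowest in these 3 embryos was not measured. Arid2 and Arid4a were also lowest in control replicate 3 (73.1 and 54.6 CPM) and SER replicate 15 (74.0 and 48.3 CPM). In control replicate 4 they had 204 and 152 CPM. The 3 embryos that stood apart held the most oocyte transcripts, and the part of this in the low values was not tested.

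Per length of exon, and by the mean of log2 levels, Arid1a and Arid4a stood highest and Arid5b and Phf2 lowest. Levels between genes were compared as log2 CPM per kb of all annotated exon bases, with a pseudocount of 0.5 counts. The means over 31 embryos were 5.94 ± 0.70 (SD) for Arid1a, 5.33 ± 0.92 for Arid4a and 4.21 ± 0.58 for Arid2. They were followed by Arid1b with 3.55 ± 0.93, Arid5a with 3.26 ± 1.42 and Arid4b with 3.23 ± 1.18. The lowest were Arid3a with 2.43 ± 1.35, Arid3b with 2.30 ± 1.22, Arid5b with 1.81 ± 2.24 and Phf2 with 0.94 ± 1.25. On the linear scale the mean of Arid5b, 7.82 CPM per kb, was above those of Arid3a (7.32) and Arid3b (5.99).
Neighbours in this order were compared within embryos by a 2-sided sign-flip permutation test with 100000 resamples, adjusted over the 9 neighbour pairs. The order was set by the same values that were tested. Every mean difference is therefore positive by construction, and the p-values do not allow for the choice of pairs. Arid1a lay above Arid4a in 26 of 31 embryos, by 0.61 ± 0.86 on the log2 scale (adjusted p = 0.00126). Arid4a lay above Arid2 in 29 of 31, by 1.12 ± 0.82 (adjusted p = 9e-05, from the smallest p that this many resamples can give). Arid2 lay above Arid1b in 23 of 31 (adjusted p = 0.00245), and Arid4b above Arid3a in 23 of 31 (adjusted p = 0.00126). The other 5 neighbour pairs did not differ beyond the spread between embryos, with adjusted p from 0.13 to 0.881. The order was the same in control-generated embryos. In SER-generated embryos Arid4b stood above Arid5a, and Arid5b was in position 7 against position 9 in control-generated embryos, ahead of Arid3a and Arid3b. These shifts in position between the groups were not tested.
The order depends on the length assigned to a gene. The 16965 exon bases of Arid4b are spread over 12 annotated transcripts, of which the longest has 5864 bases, and for Arid5a the numbers are 12540 and 5504. Per kb of the longest transcript, 5 of the 10 genes stood at another position. Arid4b then stood at 4.76 ± 1.18, above Arid2 at 4.55 ± 0.58, and Arid5a at 4.44 ± 1.42, above Arid1b at 3.70 ± 0.93, while Arid1a stayed at the top and Phf2 and Arid5b stayed at the bottom. By the same test Arid4b and Arid2 did not differ beyond the spread (adjusted p = 0.321), whereas Arid5a lay above Arid1b (adjusted p = 0.0241), Arid3b above Arid3a (adjusted p = 0.0474) and Arid5b above Phf2 (adjusted p = 0.0241).

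**Figure D4:**
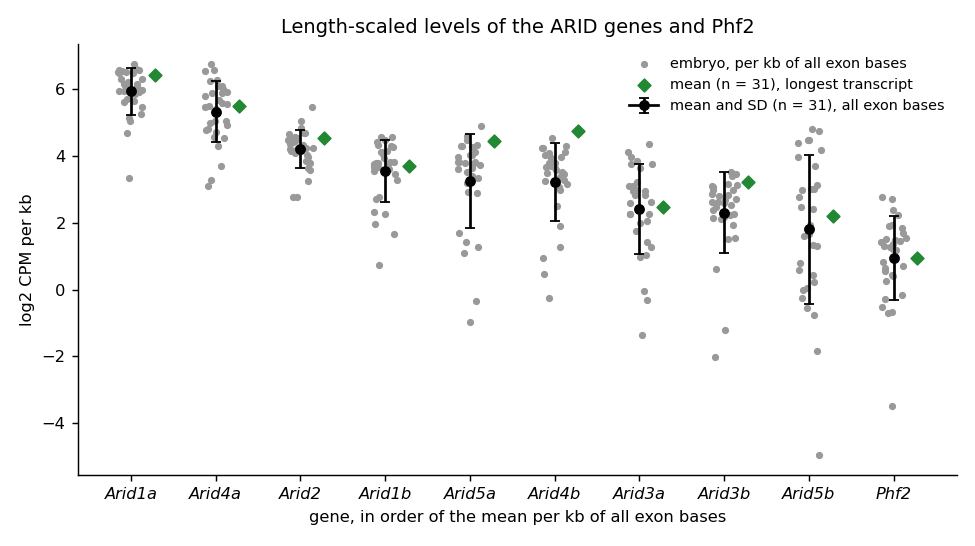
Length-scaled levels (y axis, log2 CPM per kb) of the 10 genes in the order of their means (x axis), with grey points for the 31 embryos, black points and bars for the mean and SD per kb of all exon bases, and green diamonds for the mean per kb of the longest transcript. Arid1a lies highest and Phf2 lowest under both lengths, and the diamonds of Arid4b and Arid5a lie furthest above their black points.

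Across embryos, the remodeler paralogs varied together and so did the SIN3-binding paralogs, while no relation of Arid5b with its paralog or its partner passed the test over all 31 embryos. In these relations, computed over log2 CPM, every permutation test was 2-sided with 100000 resamples and adjusted over the 5 pairs examined. Arid1a and Arid1b correlated over 31 embryos with Pearson's r = 0.64 (permutation, adjusted p = 0.00127) and Spearman's rho = 0.66 (permutation, adjusted p = 6e-04). Within the groups rho was 0.69 in control- and 0.66 in SER-generated embryos, and without the 2 embryos farthest from the median of Arid1a, control replicates 1 and 3, r was 0.62.
Arid4a and Arid4b correlated with r = 0.69 (permutation, adjusted p = 3e-04) and rho = 0.63 (permutation, adjusted p = 6e-04), with rho = 0.80 in control- and 0.42 in SER-generated embryos. Without the 2 farthest embryos, control replicate 3 and SER replicate 15, r was 0.52. Without the 3 embryos that stood apart, rho was 0.71 for the Arid1 pair and 0.52 for the Arid4 pair, and both passed the test (permutation, adjusted p = 5e-05, from the smallest p that 100000 resamples can give, and 0.012). In this setting rho within the control- and SER-generated embryos (n = 14 each) was 0.69 and 0.76 for the Arid1 pair. For the Arid4 pair it was 0.74 and 0.29, and r was 0.37 without the 2 farthest of these embryos, control replicate 1 and SER replicate 9. All embryos came from batches that the labels do not name, so the relations could not be computed within batches.
Arid5b and Phf2 gave r = -0.03 (permutation, adjusted p = 0.888) and rho = 0.05 (permutation, adjusted p = 0.777), with rho = -0.36 in control- and 0.34 in SER-generated embryos. Arid3a and Arid3b gave r = 0.04 (permutation, adjusted p = 0.888) and rho = 0.16 (permutation, adjusted p = 0.502). Arid5a and Arid5b gave r = -0.04 (permutation, adjusted p = 0.888) and rho = -0.22 (permutation, adjusted p = 0.404). This last relation rested on the embryos included. Without the 2 farthest embryos, control replicate 4 and SER replicate 15, r was -0.34, and within the groups rho was -0.44 in control- and 0.09 in SER-generated embryos. Without the 3 embryos that stood apart rho was -0.43 (permutation, adjusted p = 0.0368) and r was -0.40 (permutation, adjusted p = 0.06). Within the groups of that setting rho was -0.62 in control- and -0.06 in SER-generated embryos (n = 14 each).

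**Figure D5:**
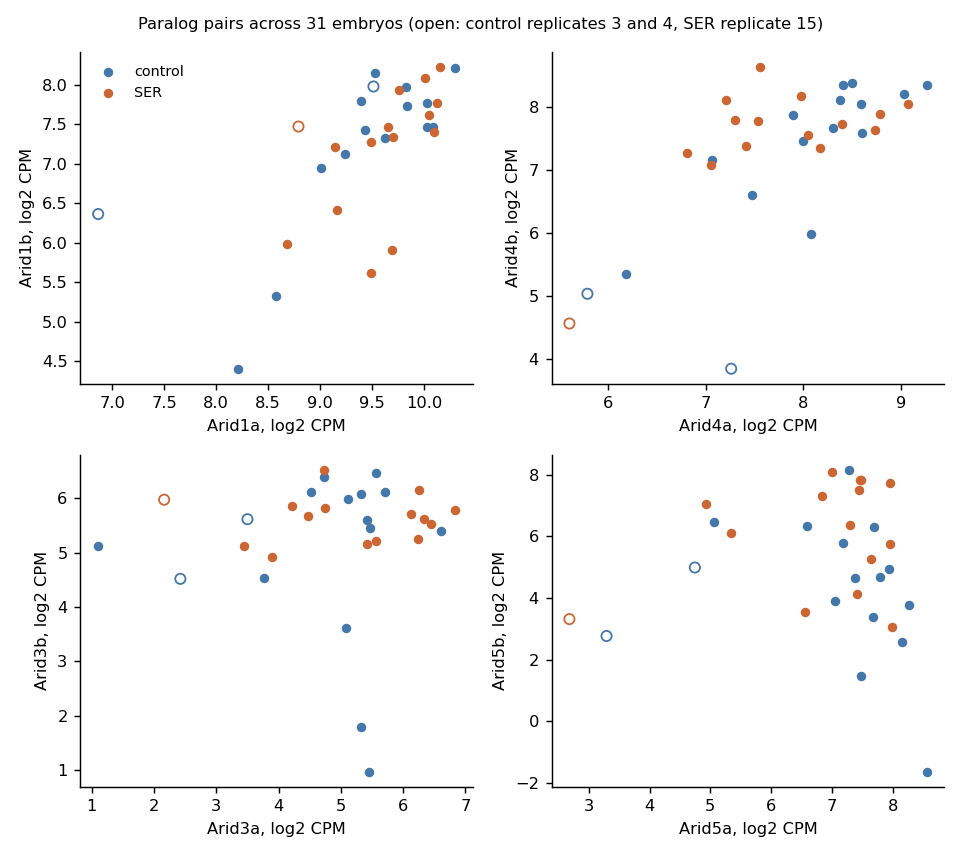
Levels of 4 paralog pairs (both axes, log2 CPM with a pseudocount of 0.5), a point per embryo, blue for control- and orange for SER-generated embryos, with open circles for control replicates 3 and 4 and SER replicate 15. The Arid1 and Arid4 pairs rise together (rho = 0.66 and 0.63), the Arid3 pair does not (rho = 0.16), and in the Arid5 pair the open circles lie apart at low Arid5a.

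Among all 45 pairs of the 10 genes, Spearman's rho over 31 embryos ran from -0.25 to 0.66 with a median of 0.28, and 6 pairs were below 0. Without the 3 embryos that stood apart it ran from -0.43 to 0.71 with a median of 0.18, and 12 pairs were below 0. High values were not particular to paralogs. Over 31 embryos rho was 0.62 for Arid3a and Arid5a, 0.57 for Arid3a and Arid4a and 0.54 for Arid4b and Arid5a. Without those 3 embryos it was 0.53 for Arid1a and Arid3b, near the 0.52 of the Arid4 pair. The median rho of Arid5b with the other 9 genes was 0.00 over 31 embryos, with Arid2 the highest at 0.34, and -0.19 without those 3. These values describe the pairs, which share each embryo's library.
Among the genes of the whole table that followed Arid5b most closely over the 31 embryos were Itgae, an integrin subunit (rho = 0.64), Nme5 of the nucleoside diphosphate kinase family (0.63), Ube3c, a ubiquitin ligase (0.62), and Scd3, a fatty acid desaturase (0.61). Those that ran most opposite were Chmp7, which takes part in resealing the nuclear envelope (rho = -0.78), Ung, a uracil-DNA glycosylase (-0.66), and Rtf1, a transcription elongation factor (-0.65). They lie at the extremes of 8570 genes and are given as a description. None of the 7 passed the test between the groups, and the smallest adjusted p among them was that of Scd3 (log2 fold change -0.65, SE 0.50, edgeR, adjusted p = 0.935).
The summed level of the zygotic 2-cell genes moved with some of the 10 genes. Spearman's rho with that sum over 31 embryos was 0.39 for Arid5b, the highest of the 10 (0.33 without the 3 embryos that stood apart), and -0.49, -0.48 and -0.39 for Arid3b, Arid1b and Arid1a, the lowest, with quartiles of -0.27 and 0.21 over all genes tested. With the summed oocyte genes, rho was -0.57 for Arid4b and 0.36 for Arid1b, with quartiles of -0.42 and 0.29, and for Arid5b it was 0.03. The 3 embryos that stood apart were those highest in this sum, and without them rho was -0.41 for Arid4b, 0.40 for Arid1b, 0.25 for Arid5b and 0.47 for Phf2, the highest of the 10, with quartiles of -0.36 and 0.31. Arid2 had the highest rho with the number of genes detected in an embryo, 0.56. With the library total, rho over 31 embryos was -0.49 for Arid4a, the lowest of the 10, and 0.22 for Arid5b, the highest, with quartiles of -0.17 and 0.14. The part of the zygotic and oocyte transcripts in the difference of Arid5b between groups was not tested.

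The partners of these proteins gave no called difference in the edgeR comparison of all 31 embryos either. Of 25 other SWI/SNF subunits, 21 passed the filter, 14 with higher and 7 with lower estimates in SER-generated embryos and a median of 0.09 on the log2 scale, and 0 of 25 had an adjusted p under 0.1. Pbrm1, which stands beside Arid2 in PBAF, had 6.83, 42.0 and 93.5 CPM at the lowest, median and highest in control- and 19.5, 66.0 and 175 CPM in SER-generated embryos. The groups overlapped, and the estimated log2 difference was 0.83 with SE 0.31 (edgeR, adjusted p = 0.708). Smarcd3, an alternative subunit found mainly in muscle and heart, was close to absent, listed at 0 in 13 of the 16 control- and in 5 of the 15 SER-generated embryos, with at most 3.07 and 7.77 CPM. It did not pass the filter, and in the fit of all 17803 genes with a count, of which 2.83% were called, the estimated log2 difference was 2.50 with SE 0.92 (adjusted p = 0.195). It passed the threshold without control replicate 5 (3.22, adjusted p = 0.0885, with 326 of 17731 genes called) and with surrogate variables (2.98, adjusted p = 0.0864, with 299 of 17803 genes called). It did not pass with limma voom, where the estimate was 0.99 (adjusted p = 0.288), or after thinning all libraries to 532945 counts, where it was 2.05 (adjusted p = 0.247).
Of 16 genes of the SIN3 complex and Rb1, 15 passed the filter, 9 with higher and 6 with lower estimates and a median of 0.02 on the log2 scale, and none of the 16 was called in edgeR's test at an adjusted p under 0.1. Rbbp4, a histone-binding subunit, had a log2 fold change of 0.48 and SE 0.26 (adjusted p = 0.869), and Ing2, the subunit that reads methylated histone, -0.53 (SE 0.29, adjusted p = 0.869).
Of the 6 other mouse genes with an ARID domain, 4 passed the filter, 3 with higher and 1 with a lower estimate, and none of the 6 was called in the same test. The demethylases Kdm5a and Kdm5b, which carry such a domain, had log2 fold changes of 0.69 (SE 0.36, adjusted p = 0.869) and 0.52 (SE 0.32, adjusted p = 0.912). The median of Kdm5b was 423 CPM in control-generated and 543 CPM in SER-generated embryos, and that of Kdm5a was 83.5 and 160 CPM. The demethylases related to Phf2 gave estimates near 0, Phf8 with a log2 fold change of 0.12 and SE 0.24 (adjusted p = 0.978) and Kdm7a with -0.0002 (SE 0.18, adjusted p = 1.00). With limma voom and sample quality weights, where 9.89% of all genes tested were called, 9 of these 49 partner genes passed, Kdm5a, Kdm5b, Pbrm1, Smarcc1, Bicral and Rbbp4 higher and Brd7, Bcl7b and Bcl7c lower in SER-generated embryos.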

How the data were processed

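RNA was sequenced from single 2-cell embryos by Smart-seq3. The authors split reads into those from the 5′ end, which carry a molecular identifier, and internal ones, mapped each set with STAR, deduplicated the former by UMI-tools and the latter by Picard, and summarised the merged reads by gene using featureCounts. The deposited values are these raw counts, and the submitters' processing notes name mm10. Tool versions, annotation and strand setting are not given in the sources used here. The authors corrected for batches with ComBat-seq, which could not be repeated since batches are not named per embryo.

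All 8571 genes kept by filterByExpr (minimum count 10, total 15) were tested with edgeR 4.0.16 (R 4.3.3) by the quasi-likelihood test with TMM, without covariates, and an adjusted p under 0.1 was called. Members removed by the filter were to be read from the fit of all 17803 genes with a count. SE is the log2 fold change divided by the square root of F. The comparison was tested on simulated data with 200 changed genes. Lengths are from GENCODE vM21, matched for 20013 of 20544 symbols. Genes named are all members, the 2 per partner list with the smallest p, and the 5 most and 3 least like Arid5b, of which 1 is not reported here. Partner genes called by limma voom were named after their values were seen. Members and lists were chosen with earlier results of these data known. Alternatives used DESeq2 1.42.0, limma 3.58.1 and sva 3.50.0. Internal reads carry no molecular identifier, so floors cover counting error only.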

Additional observations from a re-analysis of the deposited data

How the results depend on the processing

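None of the 10 genes passed an adjusted p under 0.1, or under 0.05, in any alternative run: DESeq2 size factors, no filter, 10 or more counts in 15 or more embryos, DESeq2 (which gave no adjusted p for Phf2), limma voom with sample quality weights, library size as covariate, the replicate block, 5 surrogate variables, thinning to 532945 counts, each embryo left out, and, chosen after seeing the data, without the 3 embryos that stood apart. Arid5b stayed higher in SER-generated embryos throughout, with log2 fold changes from 1.02 to 1.79 and adjusted p from 0.130, under limma voom, to 0.999. The number of genes called was 504 without the filter (141 higher, 363 lower) and, among genes that passed a filter, 49 with DESeq2 (8 higher, 41 lower), 848 with limma voom (391 higher, 457 lower), 7 with surrogate variables and 0 otherwise. In the reported edgeR comparison 491 genes had an unadjusted p under 0.05. Of the 49 partner genes, limma voom called 9 and surrogate variables 1, and with each embryo left out 0 to 1. The 1 gene was in both cases Smarcd3, which did not pass the filter and was read from fits of all genes with a count, where 299 of 17803 genes were called with surrogate variables and 326 of 17731 without control replicate 5. The causes were not tested.

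Estimates near 0 changed sign. Under limma voom, the log2 fold change was -0.049 for Arid1a, -0.00054 for Arid2, -0.056 for Arid4b, -0.16 for Phf2 and -0.21 for Phf8. With library size as covariate it was 0.13 for Arid1b and 0.041 for Arid4a, and with surrogate variables 0.17 for Arid1b and -0.0072 for Arid2. For Kdm7a it was 0.028 without the filter, 0.013 with the stricter filter, 0.017 with the replicate block and 0.051 without the 3 embryos. With each embryo left out it ran from -0.0053 to 0.19 for Phf8 and from -0.081 to 0.038 for Kdm7a. Spearman's correlation was -0.069 for Arid3a and Arid3b after thinning, and -0.029 for Arid5b and Phf2 on deviations from group means.

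Control and SER replicate numbers run in parallel in the labels, but the labels do not say that a number marks a shared male, dish or batch. The deviations of same-numbered embryos correlated at -0.368 to 0.494 (median 0.113), over 0.1 in 8 of 15 pairs, and 4 of 15 control-generated embryos correlated best with their own number. Whether this is more than unrelated numbers would give was not tested, so a pairing by number is neither shown nor excluded. The fit with the replicate block also left out control replicate 16, which has no SER-generated embryo of its number. It called 0 genes and estimated Arid5b at 1.69 on the log2 scale (adjusted p = 0.999), against 1.79 without that embryo and with no block.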
